A study of Mus musculus with 12 samples.

Results

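The clustered replication-dependent histone genes were taken as every listed gene whose symbol is H2ac, H2bc, H3c or H4c followed by a number. The rule found 57 of the 18876 genes listed in at least 1 of 12 RNA-seq libraries, with 17 H2A, 16 H2B, 12 H3 and 12 H4 genes. Of these, 47 lie on mouse chromosome 13 and 10 on chromosome 3. The libraries came from wild-type mouse primary oligodendrocyte progenitor cells from brain, the glial precursors of myelinating oligodendrocytes, and all cells were treated for 12 h. There were 3 libraries each of cells given 50 µM hemin, cells given 50 µM hemin with 10 ng/mL IL-10 (called IL-10 cells), cells given 50 µM hemin with 10 ng/mL IL-10 and 2.5 µM stattic (called stattic cells), and vehicle cells, which received DMSO. Hemin is oxidised heme, a product of haemoglobin breakdown. STAT3 is a main relay of the cytokine IL-10, and stattic inhibits it. The labels do not say whether replicates were separate cultures or animals, so the p-values measure only how far these samples spread, and that spread may be technical.

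H2A, H2B, H3 and H4 are the core histones around which DNA is wound in the nucleosome. Most replication-dependent histone genes have no introns, and their mRNAs end in a conserved stem-loop in place of a poly(A) tail. The stem-loop binding protein SLBP recognises that structure, and with the U7 small nuclear ribonucleoprotein it directs the cut that forms the mRNA end. Output of these genes rises in S phase, when new DNA must be packaged, and falls when DNA synthesis stops. A few members, among them genes that are read in non-dividing cells, also make longer polyadenylated transcripts. The library protocol starts from total RNA and uses dUTP in the second strand. Whether poly(A) RNA was selected or ribosomal RNA removed is not stated, and that step sets how many stem-loop mRNAs a library can hold. None of the 11 listed RNAs known to lack a poly(A) tail (such as Rmrp, Rn7sk and Terc) appeared in any file.

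The stem-loop was found in the GENCODE (GRCm38) transcripts of 39 of the 57 members. Of the 18 members without it, 14 have transcript models that stop within 80 bases of the stop codon. Some models that end so early do hold it, such as that of H4c17, which runs 52 bases past the stop codon. The commonest stem-loop was shared by 21 members. It and its variants follow for members that carry most of the reads or of the changes. Capitals mark the stem-loop, and T stands for U.
H2ac7: acaaaGGCTCTTTTCAGAGCCatcca
H2ac18: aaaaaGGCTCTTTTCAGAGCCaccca
H2bc11: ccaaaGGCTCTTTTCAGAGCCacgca
H3c6: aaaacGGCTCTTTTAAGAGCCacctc
H4c8: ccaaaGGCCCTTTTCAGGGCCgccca
H4c9: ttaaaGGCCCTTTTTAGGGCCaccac
The annotated transcripts differ in how far they run on past this element. The stem-loop of H2bc11 lies 23 bases from the end of its longest transcript and that of H2ac7 42 bases. In H3c6 it is followed by 369 bases and in H4c9 by 330 bases. The annotated transcripts of H2bc4 and H2bc21 run 742 and 2192 bases past the stop codon without holding the stem-loop.

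Expected counts summed to 9404448 to 10266653 per library, of which the members held 436.1 to 2507. Vehicle cells expressed the progenitor markers at a summed level of 4727 to 6763 CPM (counts scaled by library size, with TMM factors) over 8 genes, none of them at 0 in any library. The progenitor sum was 1948 to 2852 CPM in hemin cells, 1424 to 2719 CPM in IL-10 cells and 881.6 to 2136 CPM in stattic cells. Of the 8 markers, 3, 6 and 4 fell against vehicle in hemin, IL-10 and stattic cells, among them Olig2, a lineage transcription factor. In these bulk samples, fewer cells of a type and less RNA per cell cannot be told apart. Microglial and macrophage markers (12 genes) summed to 50.8 to 166.5 CPM in hemin cells, 25.6 to 56.7 CPM in IL-10 cells, 72.9 to 160.8 CPM in stattic cells and 8.76 to 36.1 CPM in vehicle cells, with 3, 1 and 5 of 11 tested genes higher. Fibroblast and vascular markers (7 genes) summed to 41.9 to 159.7, 13.5 to 54.4 and 26.8 to 64.5 CPM in those 3 groups against 4.39 to 6.12 CPM in vehicle cells, with 4, 2 and 3 of 6 tested genes higher. Aif1 and Tmem119 (microglia) and Dcn and Lum (fibroblasts) were at 0 in 1 or 2 vehicle libraries, Aif1 also in IL-10 replicate 3, and the endothelial marker Cldn5 had at most 2 counts in every library. Astrocyte markers (7 genes) summed to 1751 to 2478, 806.9 to 2166 and 956.8 to 3611 CPM in hemin, IL-10 and stattic cells against 2134 to 5817 CPM in vehicle cells, and neuron markers (6 genes) to 782.6 to 1118, 699.5 to 1108 and 643.6 to 1063 CPM against 829.6 to 1085 CPM. Hemin replicate 1 had the highest microglial and fibroblast sums and the lowest summed histone reads of the hemin cells. The part of these cell types in the histone values was not tested.

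A single H2B gene carried much of the signal. H2bc4 held 40.2% of the members' CPM averaged over the libraries, H2ac18 11.2%, H2ac10 6.49% and H2bc21 5.09%. These shares differed between groups. H2bc4 held 36.2%, 38.9% and 41.5% in hemin, IL-10 and stattic cells and 48.7% in vehicle cells, while H2ac10 held 8.24%, 7.19% and 6.39% in those groups and 1.09% in vehicle cells. Within the H3 class H3c6 held 49.97%, 48.7% and 48.4% of the reads in hemin, IL-10 and stattic cells but 4.82% in vehicle cells, where H3c14 held 67.9%. Within the H4 class H4c9 held 47.97%, 37.0% and 43.99% against 80.9% in vehicle cells. On the per-length scale (FPKM), the order of mean levels over all libraries was H2bc4 at 82.6, H2ac18 at 32.8, H4c9 at 14.5 and H4c8 at 4.81, while every other tested member averaged at most 3.78 FPKM. H2bc4 stood above H2ac18 in each of the 12 libraries. Most members were scarce: 13 were listed in all 12 libraries and 9 in 1 to 3 libraries. Libraries of hemin cells listed 39, 45 and 46 members, those of IL-10 cells 35, 41 and 40, those of stattic cells 34, 41 and 43, and those of vehicle cells 29, 35 and 34.

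The summed histone signal averaged higher in each hemin-treated group than in vehicle cells. All 57 members together reached 87.8, 162 and 185 CPM in hemin replicates 1, 2 and 3, then 80.8, 130.4 and 157 CPM in IL-10 replicates, then 82.7, 263 and 143 CPM in stattic replicates, against 62.7, 75.8 and 41.7 CPM in vehicle replicates. The means were 145 ± 51.0, 123 ± 38.7 and 163 ± 91.7 CPM in hemin, IL-10 and stattic cells and 60.1 ± 17.2 CPM in vehicle cells (SD, n = 3 each). These sums use every member, whether or not it passed the filter on low counts, and no test was made of them against vehicle. In these TMM-scaled CPM the lowest hemin-treated library, IL-10 replicate 1, lay just above the highest vehicle library. That separation depends on the scale. With CPM by library totals, IL-10 replicate 1 (77.1 CPM) and stattic replicate 1 (79.4 CPM) lay under vehicle replicate 2 (82.3 CPM), and in summed FPKM the same libraries had 129.4 and 132.0 against 151.2 in vehicle replicate 2. Summed expected counts overlapped in the same libraries, and only hemin cells stood above every vehicle library on all of these scales.

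The sums of the 4 classes follow, and no test was made of a difference between classes. H2B genes summed to 57.9, 94.3 and 104 CPM in hemin cells, 50.8, 78.2 and 86.8 CPM in IL-10 cells and 50.1, 141.5 and 91.1 CPM in stattic cells, against 42.9, 44.7 and 28.3 CPM in vehicle cells. H4 genes summed to 5.85, 10.0 and 14.5 CPM in hemin cells, 6.26, 9.16 and 13.3 CPM in IL-10 cells and 4.09, 13.4 and 10.8 CPM in stattic cells, against 2.32, 3.93 and 2.95 CPM in vehicle cells. For H2B and H4, none of the 3 hemin-treated groups overlapped vehicle in TMM-scaled CPM. In summed FPKM stattic replicate 1 lay under the highest vehicle library, with 71.3 against 72.5 for H2B and 15.17 against 16.04 for H4, and with library totals it did so as well, joined for H2B by IL-10 replicate 1. H3 genes summed to 6.35, 22.0 and 28.0 CPM in hemin cells, 5.94, 12.95 and 18.8 CPM in IL-10 cells and 5.87, 34.9 and 10.7 CPM in stattic cells, against 3.34, 6.12 and 2.10 CPM in vehicle cells. H2A genes summed to 17.7, 35.9 and 38.9 CPM in hemin cells, 17.8, 30.0 and 38.2 CPM in IL-10 cells and 22.6, 72.9 and 30.1 CPM in stattic cells, against 14.2, 21.02 and 8.38 CPM in vehicle cells. The H2A sums of hemin and IL-10 cells overlapped vehicle, and so did the H3 sums of IL-10 and stattic cells, and on the FPKM and library-total scales so did the H2A sums of stattic cells and the H3 sums of hemin cells. In FPKM the H2A sum averaged 42.9 ± 7.40 in hemin cells and 35.8 ± 16.9 in vehicle cells (SD, n = 3 each), a smaller gap than in CPM.

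**Figure D1:**
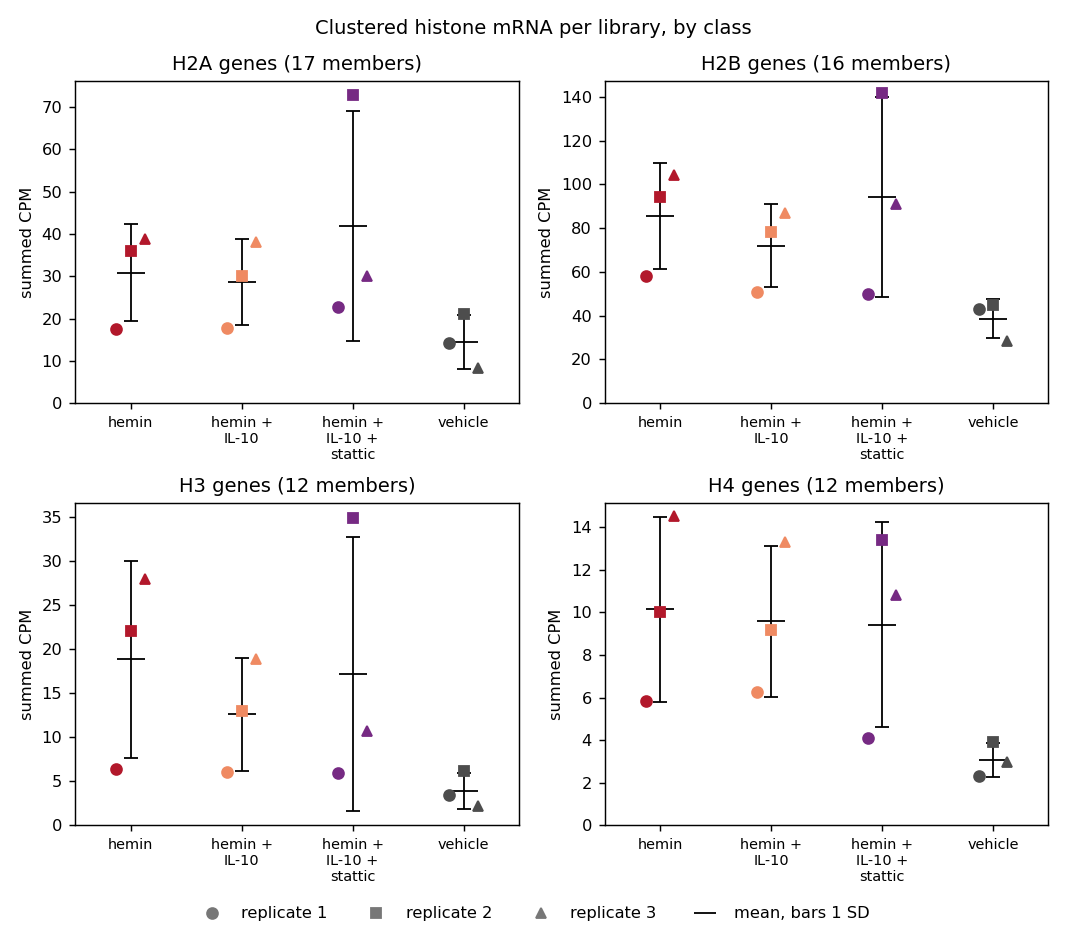
Summed CPM of the H2A, H2B, H3 and H4 members in each library, by treatment group; points are libraries with the replicate number as the shape, the dash is the mean and the bars 1 SD. Stattic replicate 2 is the highest of its group in all 4 classes, and replicate 1 is the lowest of each hemin-treated group.

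Single members were tested by quasi-likelihood in edgeR. P-values were adjusted by the Benjamini-Hochberg method over 13967 genes, with a threshold of 0.05. The test took in 20 members, 6 H2A, 7 H2B, 5 H3 and 2 H4 genes, and left out 37 with too few counts, none of which exceeded 3.03 CPM in any library. Of the 20, 13 lay under the filter's level of 1.02 CPM in vehicle cells and entered only through groups where they were higher. The counts of called members, the members' medians and the numbers of positive members therefore describe these genes and are no support for a rise of the set. The 37 untested members summed to 5.65, 12.8 and 16.5 CPM in hemin cells, 3.45, 7.79 and 12.5 CPM in IL-10 cells and 3.88, 11.8 and 9.24 CPM in stattic cells, against 2.04, 2.92 and 2.48 CPM in vehicle cells. None of the 3 hemin-treated groups overlapped vehicle in this sum.

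In hemin against vehicle, 9 of the 20 tested members (45.0%) rose and 1 fell, where 11.7% of all tested genes rose and 9.15% fell. The median log2 fold change was 2.06 over the members and 0.03 over all tested genes, with 18 of the 20 members positive. The members that rose were H2ac10 and H2ac7 (H2A), H2bc11, H2bc23 and H2bc24 (H2B), H3c6, H3c11 and H3c15 (H3) and H4c8 (H4), and the member that fell was H3c14. H2bc23 and H2bc24 are 1 measurement, and H3c14 and H3c15 share their coding sequence, as described below. The number of called members depended on single libraries. It was 1, 4 and 2 without vehicle replicates 1, 2 and 3, then 3 and 5 without hemin replicates 2 and 3, and 6 without IL-10 replicate 2, against 10 with all libraries. Calls over all tested genes dropped as well. They were 803 higher and 567 lower, 920 and 706, and 834 and 638 without vehicle replicates 1, 2 and 3, against 1639 and 1278. Without hemin replicates 2 and 3 they were 867 and 442, and 1419 and 892. Without IL-10 replicate 2 they were 1381 and 1054.

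Among H2A genes, H2ac10 had 1.98, 14.6 and 19.3 CPM in hemin cells, 3.89, 7.06 and 15.6 CPM in IL-10 cells and 4.72, 23.4 and 3.12 CPM in stattic cells, against 0.742, 0.457 and 0.762 CPM in vehicle cells. All 9 hemin-treated libraries lay above all 3 vehicle libraries. The log2 fold change of hemin against vehicle was 4.17 (SE 0.997, adjusted p = 0.0137 by edgeR). It was not called without vehicle replicate 1, 2 or 3, where the adjusted p was 0.0526, 0.0548 and 0.0501. H2ac7 had 1.88, 2.77 and 5.31 CPM in hemin cells, 3.35, 5.16 and 6.26 CPM in IL-10 cells and 2.31, 13.1 and 2.28 CPM in stattic cells, against 0.557, 0.640 and 0.762 CPM in vehicle cells. Its groups did not overlap vehicle either, and the change with hemin was 2.33 (SE 0.727, adjusted p = 0.0402 by edgeR). That call was lost without any 1 of the vehicle replicates, hemin replicate 2 or 3, or IL-10 replicate 2, with edgeR adjusted p between 0.0595 and 0.128. It was lost too with library totals (adjusted p = 0.0572) and with the length correction (0.0677).

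The H2A gene with the most reads behaved differently from those 2. H2ac18 had 11.5, 12.6 and 9.62 CPM in hemin cells, 9.82, 14.6 and 12.2 CPM in IL-10 cells and 13.5, 30.5 and 19.6 CPM in stattic cells, against 11.3, 16.6 and 2.48 CPM in vehicle cells. Its groups overlapped vehicle throughout, and the log2 difference of hemin against vehicle was 0.15, with a 95% interval of -0.98 to 1.27 (adjusted p = 0.868 by edgeR). The low value of vehicle replicate 3 went with reads assigned to its copy H2ac19, described below.

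Among H2B genes, H2bc4 had 49.7, 59.8 and 48.2 CPM in hemin cells, 41.8, 55.5 and 46.1 CPM in IL-10 cells and 36.6, 91.1 and 74.7 CPM in stattic cells, against 35.6, 32.7 and 19.4 CPM in vehicle cells. No group that received hemin overlapped vehicle, although stattic replicate 1 lay close to vehicle replicate 1 and, in FPKM and with library totals, inside the vehicle range. The log2 difference was 0.84 (SE 0.323, adjusted p = 0.0824 by edgeR) in hemin cells, 0.71 (SE 0.323, adjusted p = 0.138) in IL-10 cells and 1.20 (SE 0.325, adjusted p = 0.0202) in stattic cells, so only the last of these passed the threshold. That call was lost without stattic replicate 2 (adjusted p = 0.0702 by edgeR) and without vehicle replicate 3 (adjusted p = 0.0797), and in a fit of only those 2 groups (0.0739). With a correction for transcript length the H2bc4 difference in stattic cells was 0.53 (adjusted p = 0.292). H2bc11 had 0.992, 5.33 and 6.41 CPM in hemin cells against 0.0928, 0.822 and 0.190 CPM in vehicle cells. Its values were 2.37, 4.53 and 3.43 CPM in IL-10 cells and 2.20, 9.32 and 1.92 CPM in stattic cells. Every hemin-treated library was again above every vehicle library, and the change with hemin was 3.47 (SE 0.925, adjusted p = 0.0210 by edgeR). It was not called without hemin replicate 2 or 3 or without vehicle replicate 1 or 3 (edgeR adjusted p of 0.0660, 0.0574, 0.0823 and 0.0815). H2bc21, the other H2B gene read at several CPM in vehicle cells, had 3.27, 6.76 and 9.52 CPM in hemin cells and 4.92, 6.95 and 6.09 CPM in vehicle cells, with a log2 difference of 0.12 and a 95% interval of -0.89 to 1.14 (adjusted p = 0.878 by edgeR).

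Among H3 genes, H3c6 gave the smallest adjusted p of any member in each of the 3 comparisons with vehicle. It had 2.68, 10.2 and 15.3 CPM in hemin cells, 3.13, 6.53 and 8.68 CPM in IL-10 cells and 2.52, 17.6 and 4.80 CPM in stattic cells, against 0.0928, 0.274 and 0.190 CPM in vehicle cells. In expected counts these were 27, 99 and 153 in hemin cells and 1, 3 and 2 in vehicle cells. All hemin-treated libraries exceeded all vehicle libraries by a wide margin, and the log2 fold changes were 5.56 (SE 0.979, adjusted p = 0.00336 by edgeR) with hemin, 4.95 (SE 0.974, adjusted p = 0.00583) with IL-10 added and 5.39 (SE 0.978, adjusted p = 0.00372) with stattic added. H3c6 stayed past the threshold when each of the 12 libraries was left out in turn, in all 3 comparisons. H3c11 had 1.09, 4.20 and 4.81 CPM in hemin cells, 0.432, 2.84 and 3.03 CPM in IL-10 cells and 0.943, 6.49 and 2.40 CPM in stattic cells, against 0, 0.274 and 0.0952 CPM in vehicle cells. In CPM the lowest hemin-treated library, IL-10 replicate 1, still lay above the highest vehicle library, and the change with hemin was 4.63 (SE 1.11, adjusted p = 0.0140 by edgeR). In FPKM the IL-10 cells overlapped vehicle, with a lowest H3c11 value of 0.14 against a highest vehicle value of 0.28. Without vehicle replicate 1 or 3 its edgeR adjusted p was 0.0557 and 0.0562.

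Of the H4 genes, H4c8 had 1.19, 2.46 and 1.40 CPM in hemin cells, 2.81, 2.11 and 1.11 CPM in IL-10 cells and 0.838, 3.35 and 1.56 CPM in stattic cells, against 0.186, 0.274 and 0 CPM in vehicle cells. The groups did not overlap vehicle, and the change with hemin was 3.34 (SE 0.822, adjusted p = 0.0152 by edgeR). It was not called without hemin replicate 2 or without vehicle replicate 1 or 3 (edgeR adjusted p of 0.0627, 0.0545 and 0.0516). H4c9, the most abundant H4 gene, had 2.68, 4.20 and 7.71 CPM in hemin cells, 1.73, 3.05 and 5.86 CPM in IL-10 cells and 2.10, 5.55 and 4.80 CPM in stattic cells, against 1.76, 3.11 and 2.57 CPM in vehicle cells. Its groups overlapped, and the log2 difference with hemin was 0.97 with a 95% interval of -0.23 to 2.17 (adjusted p = 0.231 by edgeR). H4c18, the third in read count, was not tested and had 0.198, 0.717 and 1.80 CPM in hemin cells, 0, 0.737 and 3.03 CPM in IL-10 cells and 0.419, 0.733 and 0.720 CPM in stattic cells, against 0, 0 and 0.0952 CPM in vehicle cells.

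The 5 remaining tested members were low and none was called against vehicle. Across libraries H2ac6 spanned 0 to 1.15 CPM, H2ac8 0.324 to 1.89 CPM, H2bc6 0.648 to 6.49 CPM, H2bc8 0.108 to 1.68 CPM and H3c4 0 to 3.04 CPM. Their log2 differences of hemin against vehicle were 1.96, 0.60, 1.42, 1.75 and 2.16, with SE of 1.15, 0.533, 0.812, 0.783 and 1.28 (edgeR adjusted p of 0.245, 0.451, 0.232, 0.132 and 0.250). Stattic replicate 2 was the highest of the 12 libraries for each of these genes.

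**Figure D2:**
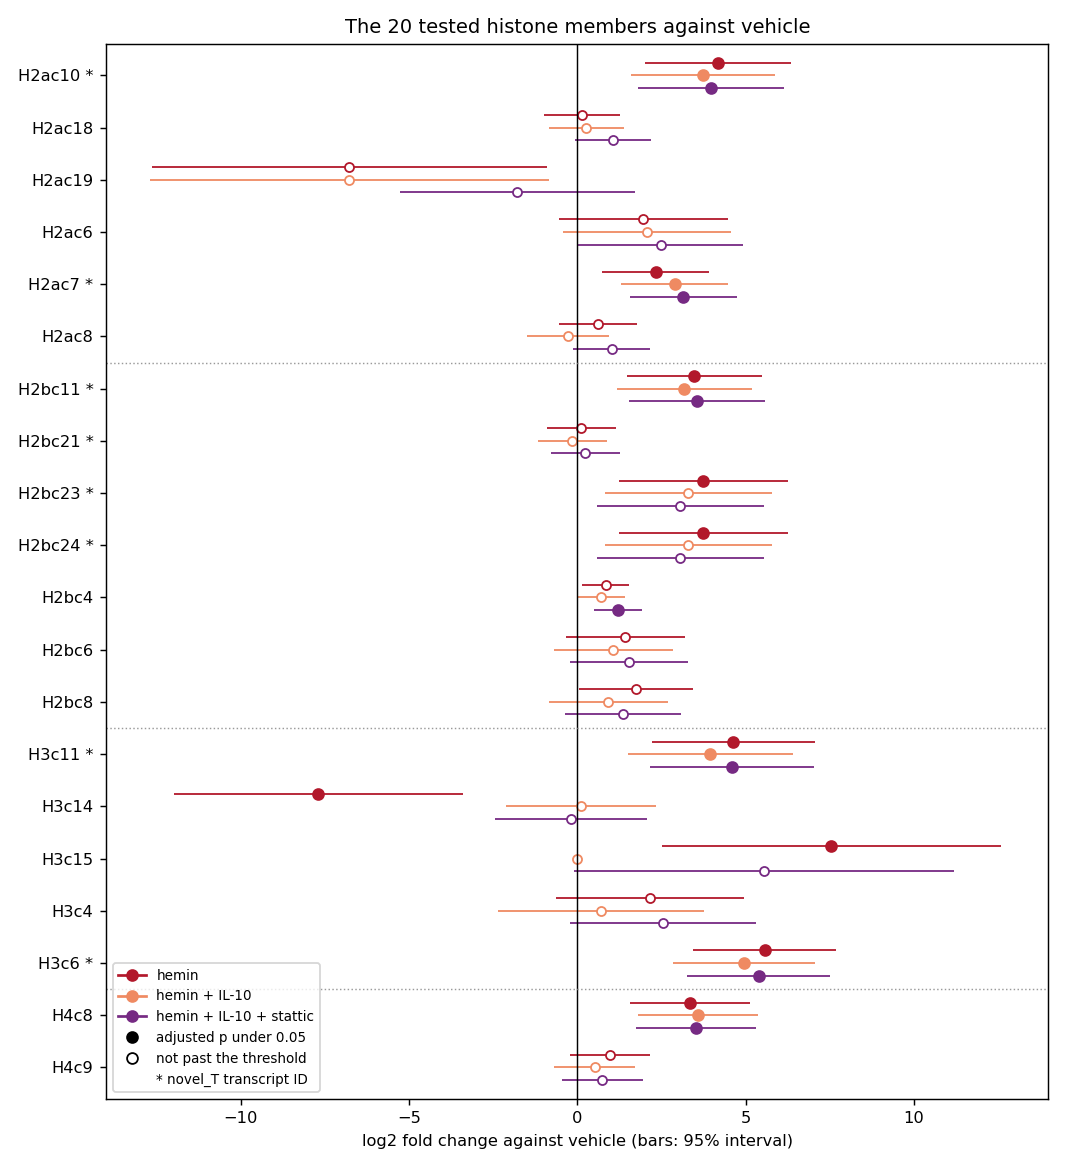
Log2 fold change of the 20 tested members against vehicle (horizontal axis) in hemin, hemin with IL-10 and hemin with IL-10 and stattic cells; bars are 95% intervals, filled points have an adjusted p under 0.05, and asterisks mark members with a novel_T transcript ID. H3c6, H2ac10, H3c11, H2bc11, H2ac7 and H4c8 are filled in all 3 comparisons, and H3c14 and H3c15 lie at opposite ends in hemin cells.

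These genes are near copies of one another, and reads that fit several copies were divided among them. Of the members' listed expected counts, 56.7% were not whole numbers (further than 0.001 from one), against 10.7% over all genes. In all, 10 members had a coding sequence identical to that of another member, and 17 were at least 99% identical to their nearest relative. The median identity to the nearest member was 98.7%. H2bc23 and H2bc24 had the same value in every library, and their transcripts hold the same sequence, so they count as 1 measurement. Together they had 1.19, 14.4 and 30.3 CPM in hemin cells, 2.59, 6.95 and 23.8 CPM in IL-10 cells and 3.77, 19.7 and 4.80 CPM in stattic cells, against 0.742, 1.83 and 0.762 CPM in vehicle cells. Hemin replicate 1 fell inside the vehicle range. Counted as 1 gene, the pair changed by 3.76 with hemin (adjusted p = 0.0348 by edgeR), by 3.31 in IL-10 cells (adjusted p = 0.0542) and by 3.07 in stattic cells (adjusted p = 0.0627), and of these only the first passed. Counted apart, each of the 2 lost its call without any 1 of the 3 vehicle replicates, hemin replicate 2 or 3, or IL-10 replicate 2 (edgeR adjusted p of 0.0520 to 0.123).

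The 2 opposite calls among H3 genes belong to 1 pair. H3c14 and H3c15 have the same 411-base coding sequence, with 0 differences. Reads from the coding sequence cannot tell the copies apart. Their GENCODE transcripts, of 1820 and 1020 bases, differ outside the coding sequence, and the shorter matched the longer at 82.45%. In the deposited values the 5 tested H3 members had a median listed length of 664 bases. Whether the records used for counting hold parts that separate the copies was not tested. Hemin libraries had 6, 36 and 28.4 expected counts on H3c15 and 0 on H3c14, while vehicle libraries had 28, 45.7 and 11 on H3c14 and 0 on H3c15. No library had counts on both. The copy that held the reads also changed within a group. Stattic replicates 1 and 2 had 13.9 and 51.0 expected counts on H3c14, and stattic replicate 3 had 14.8 on H3c15. As assigned, H3c15 was at least 25.4-fold higher in hemin cells, against a floor of 3 counts over the vehicle group. H3c14 was at least 26.1-fold higher in vehicle cells, against the same floor over the hemin group. These bounds describe how reads were assigned between the copies and not a change of the pair. The sum of the pair was 0.595, 3.69 and 2.81 CPM in hemin cells, 1.51, 2.53 and 4.44 CPM in IL-10 cells and 1.47, 5.34 and 1.80 CPM in stattic cells, against 2.60, 4.20 and 1.05 CPM in vehicle cells. All groups overlapped, and the summed log2 difference of hemin against vehicle was -0.15 (adjusted p = 0.906 by edgeR). H3c14 was not called without hemin replicate 2 or vehicle replicate 1 or 2 (edgeR adjusted p of 0.0628, 0.0508 and 0.0551), and H3c15 not without any 1 of the vehicle replicates, hemin replicate 2 or 3, or IL-10 replicate 2 (0.0502 to 0.111). DESeq2 did not call H3c15 (adjusted p = 0.154).

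The H2A pair H2ac18 and H2ac19 has identical coding sequence too. H2ac19 had no counts in 9 libraries and held 10.9 expected counts in stattic replicate 2 and 10.8 and 32.9 in vehicle replicates 2 and 3. The pair summed to 11.5, 12.6 and 9.62 CPM in hemin cells, 9.82, 14.6 and 12.2 CPM in IL-10 cells and 13.5, 31.6 and 19.6 CPM in stattic cells, against 11.3, 17.6 and 5.62 CPM in vehicle cells. The log2 difference of the sum with hemin was -0.04 (adjusted p = 0.959 by edgeR). With the 3 pairs each counted as 1 gene, an alternative added after seeing the data, 7 members rose and 0 fell in hemin, 6 rose in IL-10 and 7 rose in stattic cells against vehicle. Of all 13964 genes tested in that fit 1637 rose and 1276 fell in hemin, 1696 and 1232 in IL-10 and 2050 and 1425 in stattic cells.

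**Figure D3:**
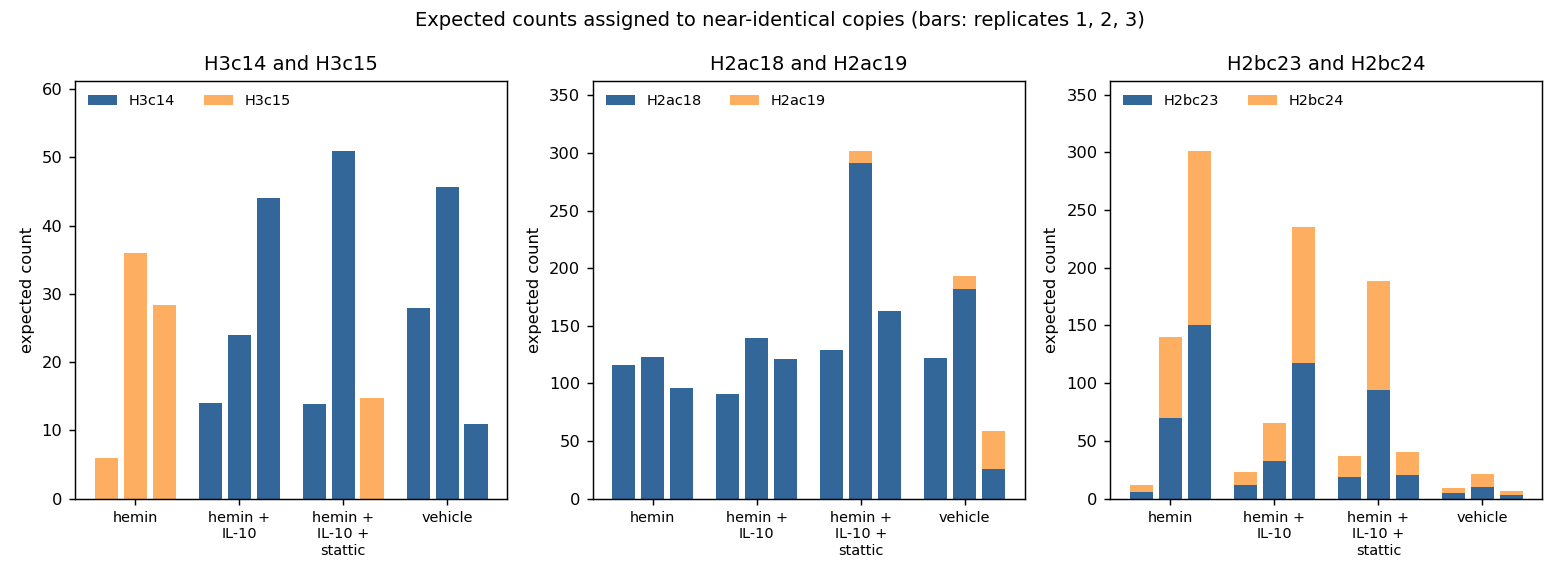
Expected counts (vertical axis) assigned to each copy of 3 near-identical pairs in every library; the 3 bars of a group are replicates 1, 2 and 3. Reads sit on H3c15 in hemin cells and on H3c14 in vehicle cells, while the height of the pair overlaps between the groups, and H2bc23 and H2bc24 hold equal shares throughout.

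Most of the members that rose carry a transcript ID with the prefix novel_T in the deposited files, a prefix that the sources used here do not define. Of the 57 members 8 carry one (H2ac10, H2ac7, H2bc11, H2bc21, H2bc23, H2bc24, H3c11 and H3c6), and all 8 were among the 20 tested. In hemin against vehicle 7 of the 8 rose, with H2bc23 and H2bc24 among them, while of the 12 tested members without one 2 rose and 1 fell. The counts of rises were 5 of 8 against 1 of 12 in IL-10 cells and 5 of 8 against 2 of 12 in stattic cells. Of the 8, 7 lay under the filter's level in vehicle cells, as did 6 of the 12, so these counts are a description and no support for a difference between the 2 kinds. Over all tested genes 45.4% carry such an ID, and 10.5% of those rose with hemin against 12.8% of the genes without one. The same shares were 11.6% against 12.6% in IL-10 cells and 12.8% against 16.2% in stattic cells. The lengths listed for these members are mostly greater than that of a stem-loop mRNA. H2ac10 was listed at up to 6282 bases and H3c6 at up to 6410 bases, against 435 bases for H4c8 and 556 bases for H2ac18. Long listed lengths are not particular to members with such an ID: H2bc6 has none and was listed at up to 2495 bases, while H2bc11 has one and was listed at 744.3 bases in vehicle replicate 3. Which transcript the added reads came from cannot be told from gene-level values.

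Summed reads averaged higher in each hemin-treated group than in vehicle cells both with and without such an ID, though not every range was separate. The 8 members with a novel_T ID summed to 13.1, 58.1 and 91.0 CPM in hemin cells, 18.3, 40.0 and 67.5 CPM in IL-10 cells and 21.5, 99.6 and 25.5 CPM in stattic cells, against 7.14, 11.2 and 8.86 CPM in vehicle cells. No hemin-treated group overlapped vehicle. The 49 members without one summed to 74.7, 104.1 and 94.5 CPM in hemin cells, 62.5, 90.3 and 89.7 CPM in IL-10 cells and 61.2, 163.1 and 117.3 CPM in stattic cells, against 55.6, 64.5 and 32.9 CPM in vehicle cells, and hemin cells did not overlap vehicle in this sum while IL-10 and stattic cells did. Among them the 37 untested members, given above, did not overlap vehicle in any group. Leaving out H2bc4, the other 48 members without a novel_T ID summed to 25.0, 44.4 and 46.3 CPM in hemin cells, 20.7, 34.9 and 43.6 CPM in IL-10 cells and 24.6, 72.0 and 42.6 CPM in stattic cells, against 19.95, 31.8 and 13.4 CPM in vehicle cells, and all 3 hemin-treated groups overlapped vehicle. In FPKM, which divides reads by length, the change of H2ac10 was smaller. H2ac10 had 0.310, 2.73 and 3.78 FPKM in hemin cells and 0.550, 0.070 and 0.640 FPKM in vehicle cells, which overlap. The lowest values of IL-10 and stattic cells, 0.60 and 0.40 FPKM, also lay inside the vehicle range of H2ac10. With limma on log2(FPKM + 0.1) the difference of H2ac10 with hemin was 1.93 and missed the threshold (adjusted p = 0.192), whereas H3c6 was called with hemin under every alternative tried. H2bc23, H2bc24 and H2ac7 missed the threshold on that scale as well (adjusted p of 0.170, 0.170 and 0.0508), and with log2(FPKM + 1) the rises called with hemin were H3c6, H4c8 and H3c15. In IL-10 cells log2(FPKM + 1) left H4c8 and H2ac7, and in stattic cells H4c8, H2ac7 and H2bc11, with H3c6 at adjusted p of 0.0590 and 0.0645. Hemin-treated libraries also held more of short genes in general. Tested genes of up to 1000 bases numbered 709. Their median log2 difference against vehicle was 0.46 in hemin, 0.26 in IL-10 and 0.86 in stattic cells. Of these genes 78, 65 and 217 rose. In hemin and IL-10 cells that was a smaller share than among all tested genes (11.7% and 12.1%). In stattic cells the share was larger (30.6% against 14.7%). Over the longest 20% of the genes the medians were -0.20, -0.13 and -0.32. The part of that trend in the histone values was not tested beyond a length-corrected fit, in which 8 members rose and 1 fell with hemin. In stattic cells 5 members rose in that fit, and H4c8 was not among them (adjusted p = 0.0562 by edgeR). Of all 13967 tested genes that fit had 2027 higher and 1489 lower with hemin, and 1972 and 1342 in stattic cells.

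**Figure D4:**
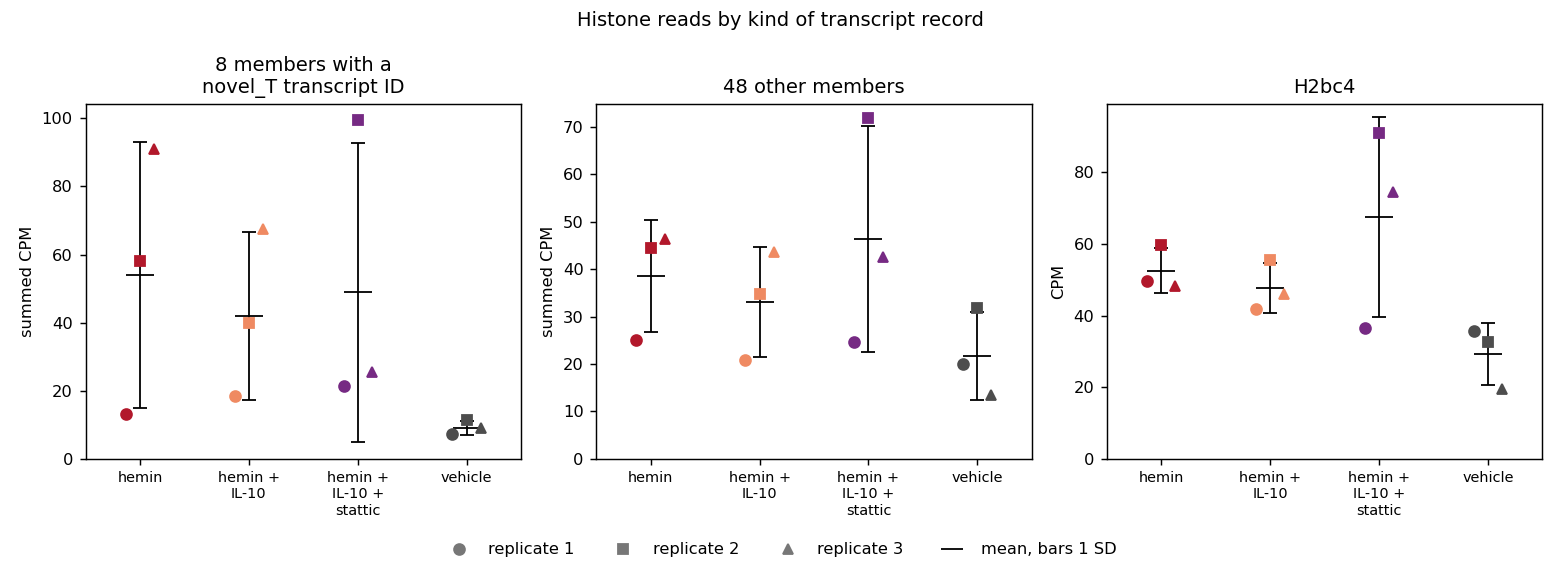
Summed CPM of the 8 members with a novel_T transcript ID, of the 48 members without one other than H2bc4, and CPM of H2bc4, in each library by treatment group; the dash is the mean and the bars 1 SD. The first sum is at least 13.1 CPM in every hemin-treated library and at most 11.2 CPM in every vehicle library, while the middle sums overlap and those of H2bc4 in CPM do not.

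IL-10 cells were set against the same vehicle libraries, so the 3 comparisons with vehicle share them. In IL-10 cells 6 of the 20 tested members (30.0%) rose and 0 fell, where 12.1% of all tested genes rose and 8.81% fell, and the median was 0.99 over the members and 0.00 over all tested genes. These were H3c6, H4c8 (3.59, SE 0.820, adjusted p = 0.0113), H2ac7 (2.89, SE 0.730, adjusted p = 0.0175), H2ac10 (3.73, SE 0.988, adjusted p = 0.0213), H3c11 (3.96, SE 1.12, adjusted p = 0.0279) and H2bc11 (3.17, SE 0.925, adjusted p = 0.0310), all by edgeR. The number called was 2 without vehicle replicate 1, 2 without vehicle replicate 3 and 3 without IL-10 replicate 2. Over all tested genes those omissions left 724 higher and 478 lower, 874 and 594, and 849 and 423, against 1696 and 1231. H2ac7 and H2ac10 were not called without any 1 of the vehicle replicates, nor H3c11 and H2bc11 without vehicle replicate 1 or 3. Calls were also lost without IL-10 replicate 2 (H2ac7, H3c11, H2bc11) and without IL-10 replicate 3 (H2ac10, H3c11). The edgeR adjusted p-values of these lost calls were 0.0516 to 0.111.

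In stattic cells 7 of the 20 tested members (35.0%) rose and 0 fell against vehicle, where 14.7% of all tested genes rose and 10.2% fell, and the median was 2.51 over the members and 0.10 over all tested genes. Of all tested genes of up to 1000 bases 30.6% rose in this comparison, close to the members' share. Beside H3c6 and H2bc4 these were H2ac7 (3.15, SE 0.733, adjusted p = 0.0111), H4c8 (3.53, SE 0.821, adjusted p = 0.0111), H3c11 (4.59, SE 1.12, adjusted p = 0.0133), H2ac10 (3.97, SE 0.993, adjusted p = 0.0150) and H2bc11 (3.56, SE 0.927, adjusted p = 0.0178), all by edgeR. Stattic replicate 2 was the highest library of its group for each of them, and without it 4 members were called. The number was 4 and 3 without vehicle replicates 1 and 3. Over all tested genes 1601 rose and 1092 fell without stattic replicate 2. Without vehicle replicates 1 and 3, 916 and 1026 rose and 692 and 732 fell, against 2048 and 1424 with all libraries. H2ac10 was not called without any 1 of the vehicle replicates or stattic replicate 2, H2bc11 not without vehicle replicate 1 or 3 or stattic replicate 2, and H3c11 not without vehicle replicate 1 or 3 (edgeR adjusted p of 0.0514 to 0.0712).

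No member was called by edgeR between the hemin-treated groups. In IL-10 against hemin cells 0 of 20 members and 0.0% of all tested genes were called by edgeR, 2 members and 337 genes had an unadjusted p under 0.05, and DESeq2 called 3 genes, of which 1 is a member. The median was -0.39 over the members and -0.01 over all tested genes. The 2 members with an unadjusted p under 0.05 were H3c14 (7.81) and H3c15 (-7.55), the pair whose summed log2 difference was 0.26 (adjusted p = 0.999 by edgeR). The DESeq2 call was H3c14. For H3c6 the log2 difference was -0.62 with a 95% interval of -2.17 to 0.94, for H2bc4 -0.14 (-0.83 to 0.56) and for H2ac10 -0.44 (-2.23 to 1.36). The intervals of the 2 low genes, H3c6 and H2ac10, were wider than that of H2bc4. These libraries were taken as paired by replicate number, from the correlation of their deviations, and within the 3 pairs the sum of all members was lower in IL-10 than in hemin cells each time, by 6.93, 31.9 and 28.3 CPM. H2bc4 and the H2B and H3 sums were lower in 3 of 3 pairs and the H2A and H4 sums in 2 of 3. An exact sign-flip permutation test over 3 pairs cannot go below a two-sided p of 0.25, the value for the sum of all members. With the replicate block the log2 difference of H3c6 was -0.46 (95% interval -1.45 to 0.53), and no member was called. In stattic against IL-10 cells 0 of 20 members and 0.0% of all tested genes were called by edgeR, 1 member and 523 genes had an unadjusted p under 0.05, and DESeq2 called 0. The median was 0.42 over the members and 0.02 over all tested genes. The member was H2ac8, an H2A gene, with 0.734, 1.89 and 1.56 CPM in stattic cells against 0.324, 0.632 and 0.707 CPM in IL-10 cells, a log2 difference of 1.30 (adjusted p = 0.921 by edgeR). H2bc4 differed by 0.50 (95% interval -0.20 to 1.19) and H3c6 by 0.44 (-1.12 to 2.00).

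The genes of DNA replication mostly lay lower than in vehicle cells, while the sum of the clustered members averaged higher. Of 29 DNA replication and S phase genes, all tested, 0 rose and 8, 16 and 13 fell in hemin, IL-10 and stattic cells against vehicle, with medians of -0.95, -1.29 and -1.15. Fen1, the flap endonuclease of Okazaki fragment processing, averaged 14.2 ± 3.43 CPM in hemin cells and 62.2 ± 21.3 CPM in vehicle cells (SD, n = 3 each), a log2 fold change of -2.13 (SE 0.292, adjusted p = 9.64e-04 by edgeR). Rrm2, a subunit of ribonucleotide reductase, changed by -1.72 (adjusted p = 0.0111) and Tk1, the thymidine kinase of dividing cells, by -2.23 (adjusted p = 0.0124). The summed S phase list was 1411 to 1696 CPM in hemin cells, 1076 to 1588 CPM in IL-10 cells and 816.4 to 2165 CPM in stattic cells, against 1926 to 3772 CPM in vehicle cells, and in CPM only the stattic range overlapped vehicle. With library totals and in FPKM no group did. Of 15 mitosis genes 4, 6 and 10 fell and 0 rose. Mki67, the proliferation marker, changed by -1.57, -2.09 and -2.84 in the 3 groups (edgeR adjusted p of 0.0429, 0.0150 and 0.00394). In hemin cells the sum of all clustered members therefore lay above the vehicle range and the S phase sum below it. The H2A sum of hemin cells overlapped vehicle, as did their H3 sum in FPKM and with library totals. Whether cells were in S phase was not measured.

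The histone variants, which are made outside S phase as well and are encoded by intron-containing, polyadenylated genes in most cases, were 9 genes, all tested. H2ax, the variant phosphorylated at DNA breaks, fell in all 3 groups. It averaged 22.7 ± 7.19 CPM in hemin cells, 20.5 ± 3.97 CPM in IL-10 cells and 21.5 ± 7.30 CPM in stattic cells, against 75.6 ± 5.28 CPM in vehicle cells (SD, n = 3 each), with log2 fold changes of -1.74, -1.88 and -1.82 (edgeR adjusted p of 0.00315, 0.00222 and 0.00261). H2aj changed by 1.49 (adjusted p = 0.00527 by edgeR) and H3f3b, an H3.3 gene, by 0.89 (adjusted p = 0.0173) in stattic cells. H2az1, H2az2, H3f3a, Macroh2a1, Macroh2a2 and Cenpa were not called in any of these comparisons, with log2 differences of -1.04 to 0.97. Of 7 listed linker histones 4 were tested. H1f0, the linker of differentiated cells, fell by 1.46, 1.40 and 1.45 on the log2 scale in hemin, IL-10 and stattic cells (edgeR adjusted p of 0.00669, 0.00811 and 0.00632). H1f1, a replication-dependent linker gene, averaged 1.51 ± 0.466 CPM in hemin cells and 0.0614 ± 0.0532 CPM in vehicle cells, and changed by 4.35, 3.09 and 3.09 (edgeR adjusted p of 0.00275, 0.0168 and 0.0154). H1f2 passed in IL-10 cells (1.13, adjusted p = 0.0303) and H1f10 in none.

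The factors that process and deposit histones were measured too. Of 16 processing and transcription factors 1 rose in each group, and 1, 1 and 2 fell. Zfp473, a zinc finger protein of the U7 cleavage complex, averaged 4.58 ± 1.70 CPM in hemin cells and 0.775 ± 0.136 CPM in vehicle cells, a change of 2.54 (adjusted p = 0.0128 by edgeR), with 2.09 and 2.44 in IL-10 and stattic cells. Lsm11, a protein of the U7 particle, changed by -0.83, -0.87 and -0.94 (edgeR adjusted p of 0.0402, 0.0335 and 0.0222). Slbp averaged 50.6 ± 13.6, 49.6 ± 6.44 and 41.9 ± 4.83 CPM in hemin, IL-10 and stattic cells and 69.6 ± 17.0 CPM in vehicle cells (SD, n = 3 each), and its change passed the threshold in stattic cells (-0.73, adjusted p = 0.0464 by edgeR) but not in hemin (-0.46, adjusted p = 0.199) or IL-10 cells (-0.49, adjusted p = 0.174). Of 17 chaperones 1 rose in each group and 4, 4 and 6 fell. Chaf1a, the large subunit of the CAF-1 complex that places new H3 and H4 behind the replication fork, changed by -2.30, -2.19 and -2.56 (edgeR adjusted p of 0.00311, 0.00385 and 0.00202). Nasp, which holds soluble H3 and H4, changed by -1.24, -1.29 and -1.37 (edgeR adjusted p of 0.00646, 0.00533 and 0.00383).

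**Figure D5:**
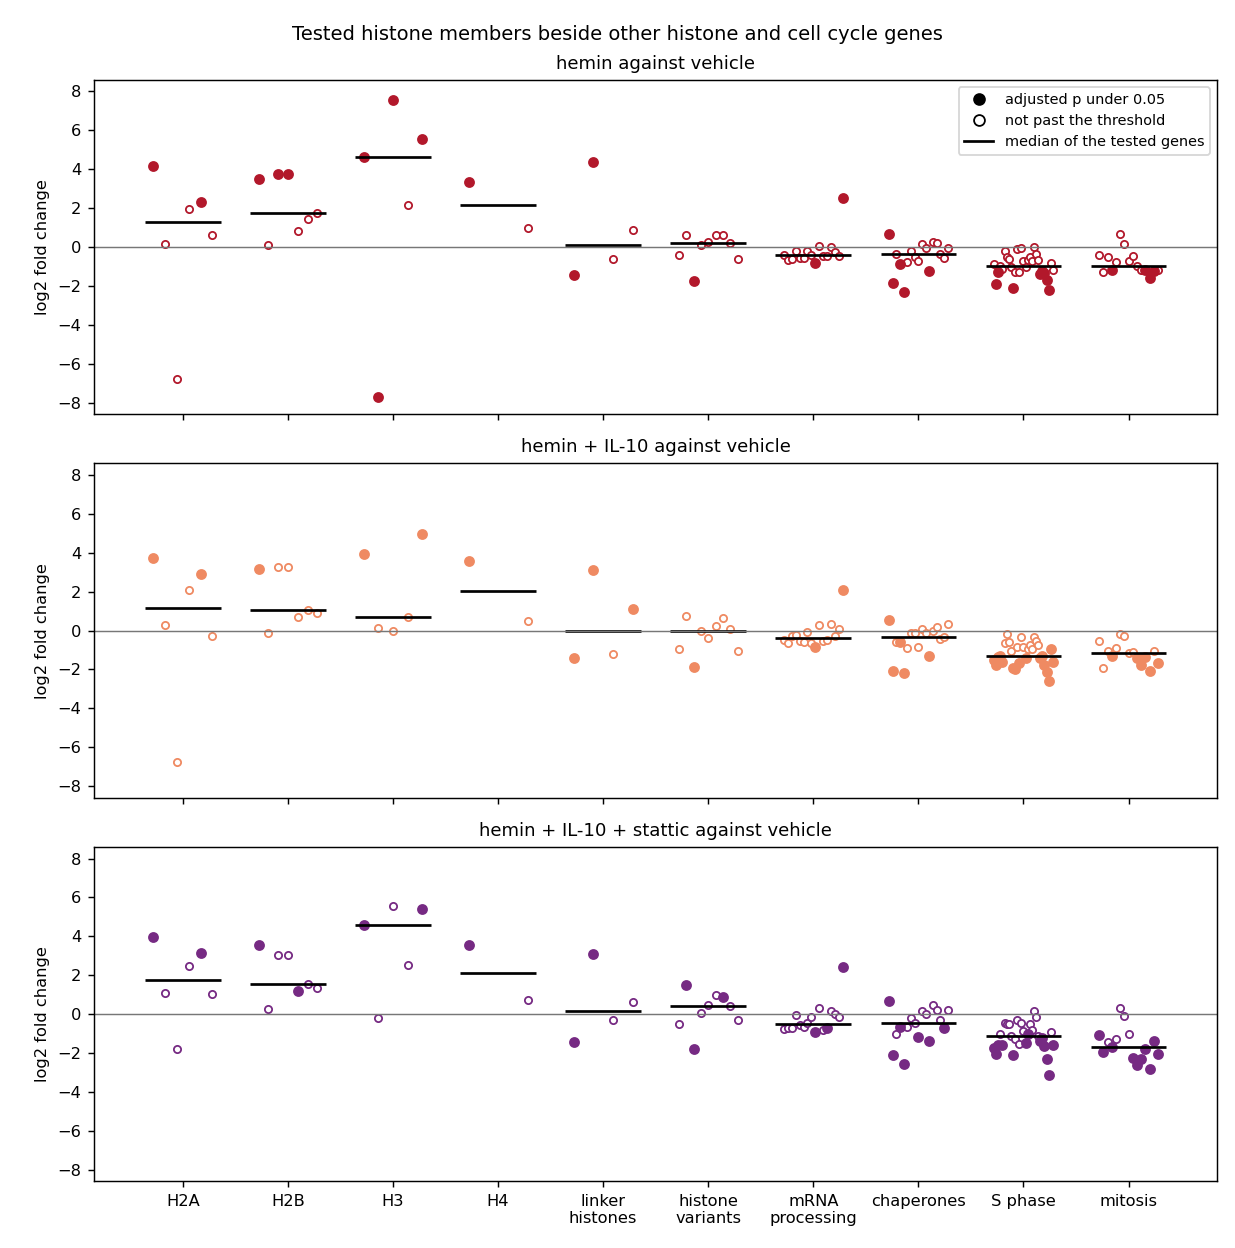
Log2 fold change against vehicle (vertical axis) of each tested member by class and of the tested genes of 6 other lists, in hemin (top), hemin with IL-10 (middle) and hemin with IL-10 and stattic cells (bottom); filled points have an adjusted p under 0.05 and lines are medians. The medians of the 4 member classes lie above 0 in all 3 comparisons and those of the S phase and mitosis genes below 0. The member medians are a description only, since 13 of the 20 tested members passed the filter through groups where they were higher than in vehicle cells.

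The promoters of the classes differ in their motifs, while members of each class were among those that rose. RefSeq promoters (GRCm38.p6, 250 bases before to 50 after the start) were matched for 52 of the 57 members. CCAAT, searched on both strands, was found in all 17 H2A, 14 H2B and 10 H3 promoters and in 3 of 11 H4 promoters, against 37.9% of 27025 promoters. TATAAA was found in 55.8% of the members' promoters against 14.2% of all, and the octamer ATTTGCAT, a motif of H2B promoters, in 6 H2A, 5 H2B, 0 H3 and 0 H4 promoters, against 1.75% of all. The promoters of H3c6, with 4 CCAAT matches, and H4c8, with none of the 3 motifs, are shown because both genes rose in all 3 comparisons. Capitals mark CCAAT on either strand.
H3c6, chr13:23562336-23562635, minus strand: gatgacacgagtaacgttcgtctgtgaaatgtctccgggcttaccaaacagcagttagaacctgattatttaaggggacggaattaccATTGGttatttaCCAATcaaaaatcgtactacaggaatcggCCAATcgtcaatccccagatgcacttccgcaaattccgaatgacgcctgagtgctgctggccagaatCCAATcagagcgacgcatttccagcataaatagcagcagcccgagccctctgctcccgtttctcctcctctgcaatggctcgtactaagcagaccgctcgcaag
H4c8, chr13:23530794-23531093, plus strand: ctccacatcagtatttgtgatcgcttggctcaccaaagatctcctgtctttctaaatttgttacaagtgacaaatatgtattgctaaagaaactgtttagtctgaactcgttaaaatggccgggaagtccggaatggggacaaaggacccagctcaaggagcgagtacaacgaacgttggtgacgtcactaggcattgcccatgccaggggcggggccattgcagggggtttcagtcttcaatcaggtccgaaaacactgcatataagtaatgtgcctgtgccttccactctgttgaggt
A match says only that the letters are in the window, and the absence of one says nothing of the factors that bind there.

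The genes outside the class whose log2 CPM over the 12 libraries most resembled the log2 summed CPM of the members were Gm30531 (Pearson r = 0.957), Brdt (0.954), Lgals4 (0.947), Gm44502 (0.944) and Gm33257 (0.942). Brdt encodes a bromodomain protein of the testis and Lgals4 a galectin. These correlations are a description over 12 libraries that share depth, scaling and treatment, and the likeness is partly that of 9 libraries with hemin to 3 without.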

How the data were processed

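Libraries were built from total RNA with dUTP in the second strand and read on DNA nanoballs, per the labels' protocols. Aligners (HISAT, TopHat, Bowtie, Bowtie2), assemblers and counters (RSEM, StringTie, Cufflinks) and CASAVA appear in the submitters' processing notes without versions or roles. The genome build and any use of strand in counting are not given in the sources used here. Per the file headers, the authors deposited for each gene an expected count (an estimated, partly fractional read number, not normalised) and an FPKM value (scaled for length and depth). Genes missing from a library's file were set to 0.

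Expected counts were rounded and tested with edgeR 4.0.16 (R 4.3.3): filterByExpr, TMM scaling, robust quasi-likelihood over all 12 libraries with 1 mean per group, and adjusted p under 0.05 over 13967 genes. The filter asks for about 10 counts (1.02 CPM) in at least 3 libraries. SE values were derived from the fold change and its F statistic. The procedure was tested on simulated data. DESeq2 1.42.0, limma 3.58.1 on log2 FPKM, other scalings, no filter, a length correction, a replicate block and leaving out each library were alternatives. Fold bounds against 0 counts use a floor of 3 counts over the group and cover counting error only.

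The members and gene lists were chosen with earlier results of these data known. Named were the 3 members per class with the most reads, up to 6 members per comparison with the smallest adjusted p, other called members, and up to 3 genes of each other list (all variants and linkers). All 57 members were matched to RefSeq. Stem-loops were searched in GENCODE transcripts of GRCm38. Replicate numbers were checked for pairing by the correlation of same-numbered deviations from the group means: it exceeded 0.1 in all 3 pairs only for IL-10 against hemin (0.374, 0.170 and 0.610), so these libraries were taken as paired there.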

Additional observations from a re-analysis of the deposited data

How the results depend on the processing

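Of the members called against vehicle, H3c6 was called in hemin cells under all 12 omissions of 1 library and all 11 other alternatives. Numbers of called members stayed within 1.5 times under DESeq2, DESeq2 size factors, library totals, no filter, only the groups compared, the length correction and the merged copies, except that DESeq2 called 1 member (H3c14, adjusted p = 0.0227) in IL-10 against hemin, where edgeR called 0. The members tested differed: 20 in the main fit, 56 with no filter and 17 with merged copies. With only the groups compared they were 11, 13 and 13 in hemin, IL-10 and stattic cells against vehicle. With no filter 11, 9 and 8 of the 56 rose in those groups, where 9.29%, 9.22% and 10.97% of all 18835 genes rose. The medians there were 1.91, 0.96 and 1.57 over the members and 0.12, 0.10 and 0.16 over all genes. On FPKM fewer members passed. With limma on log2(FPKM + 0.1) the counts were 6 in hemin, 3 in IL-10 and 5 in stattic cells against vehicle, and with log2(FPKM + 1) they were 4, 2 and 3. Over all 13967 tested genes log2(FPKM + 0.1) gave 1294 higher and 1574 lower, 1209 and 1677, and 1287 and 2372 in those groups. With log2(FPKM + 1) these were 1079 and 1716, 948 and 1779, and 970 and 2406. FPKM carries no depth, and a pseudocount shrinks the changes of low genes. Leaving out 1 library gave 1 to 11 members in hemin, 2 to 9 in IL-10 and 3 to 9 in stattic cells against vehicle, and 0 in both other comparisons. With 2 libraries in a group, the filter admits more low genes and the test has fewer degrees of freedom.

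With a replicate block the counts were 10, 8 and 9 against vehicle. Calls over all tested genes grew as well, to 2167 higher and 1833 lower in hemin, 2102 and 1827 in IL-10 and 2438 and 1984 in stattic cells. Among the members the block changed no call in the paired comparison of IL-10 with hemin (0 members), nor in stattic against IL-10 (0). What links same-numbered libraries is not stated in the labels, and in the other comparisons the numbers are not taken as pairing. Scaling by library totals shifted the median log2 difference of all genes from 0.03 to -0.07 in hemin, 0.00 to -0.13 in IL-10 and 0.10 to -0.14 in stattic cells against vehicle. The split of all called genes became 1395 higher and 1593 lower, 1317 and 1665, and 1414 and 2208, against 1639 and 1278, 1696 and 1231, and 2048 and 1424 with TMM. Of the members it changed 1 call, that of H2ac7 with hemin (adjusted p = 0.0572). The difference of H3c4 in stattic against IL-10 cells was 1.83, reversed to -0.82 without stattic replicate 2 and reached 2.73 without IL-10 replicate 3; it was not called in any of these. Depth limits the low members: H3c6 rests on 1, 3 and 2 counts in vehicle cells.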
